A study of Homo sapiens with 3 samples.

Results

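Expression of 9 tight junction genes was compared between the lung cancer cell line H1975 and its osimertinib-resistant derivatives OR1 and OR2. The genes encode 4 claudins (CLDN1, CLDN3, CLDN4 and CLDN7), the MARVEL-domain proteins OCLN and MARVELD3, the junctional adhesion molecule F11R, and the scaffold proteins TJP1 and TJP3. They were taken by symbol, with every probe that carries the symbol, from 43316 genes on the array, and 13 probes measured the 9 genes. Each distinct name on the array is counted as a gene here, and some names are probe or transcript identifiers. NCI-H1975 is a human non-small cell lung cancer line harboring mutated EGFR, and it was used here as the osimertinib-sensitive parent. OR1 and OR2 were selected from it independently, as clones, with osimertinib raised stepwise to 2 μmol/L over 4 months, so all 3 lines go back to the same parent, and all were kept in RPMI medium with serum. Resistance lasted in culture without the drug per the methods, and whether osimertinib was present when RNA was taken is not given in the sources used here. RNA of each line was hybridized to 1 Agilent single-colour array, all 3 on 1 slide. There was thus no replicate of any line, differences are ratios of a single array to a single array, and no p-value was computed. The methods call each resistant line a clone, and fewer cells expressing a gene cannot be told apart from less RNA per cell.

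Tight junctions seal the space between neighbouring epithelial cells near their apical surface. Claudins span the membrane 4 times and form the strands that set which ions and molecules pass, while occludin (OCLN) and MARVELD3 join these strands through their MARVEL domains. F11R, also called JAM-A, is an immunoglobulin-family adhesion protein, and TJP1 and TJP3 (ZO-1 and ZO-3) tie claudins, occludin and F11R to the actin cytoskeleton and to polarity complexes. Loss of claudins and occludin is a well-known feature of epithelial cells that take on a mesenchymal state.

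Intensity is the brightness of a spot after background correction within its array. For ratios it was scaled on the array's 75th percentile, which lay between 138 and 162. A gene was called lower at a ratio of 0.5 or less, if H1975 was well above background, and higher at 2 or more, if the resistant line was. On 58200 probes, 45.6% to 45.9% were well above background, and the lowest such intensity was 11.4 to 12.6. A side that was not well above background was set to that limit, or to its own intensity if higher, and the ratio is then written as a bound. The technical SD of a log2 ratio, from the scanner software's error estimate, was 0.20 to 0.28 for the members, and it covers the measurement of 1 RNA sample only. All 6 epithelial markers (KRT7, KRT8, KRT18, KRT19, EPCAM and CDH1) were well above background on all 3 arrays. The summed intensity of these markers was 390544 in H1975, against 147897 for OR1 and 172181 for OR2. This unscaled sum was therefore lower in both resistant lines. By scaled ratio, KRT7, KRT19, EPCAM and CDH1 were called lower in both lines. KRT8 (1.12 for OR1 and 0.964 for OR2) and KRT18 (0.884 and 0.806) were not called. The part of these markers in the results on the members was not tested. Of 6 fibroblast markers 1 to 3 were well above background per array, with sums of 104 to 684, while DCN, PDGFRA and THY1 were not on any array. The other fibroblast markers differed by line. COL1A1 read 461 in H1975, against 585 for OR1 and 86.8 for OR2, a ratio of 1.45 and 0.183. COL1A2 had 200, 28.3 and 5.65, with ratios of 0.162 and at most 0.0615. LUM passed the background limit for OR1 only, at 59.8, a ratio of at least 5.43. The part of these 3 markers in the results on the members was not tested. Of 5 endothelial markers 3 were well above background on each array, with PECAM1, CDH5 and VWF between 14.5 and 64.3, and CLDN5 and ESAM on none. Of the leukocyte markers, PTPRC lay at 20.5 to 21.0, and CD3E was not well above background.

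Before the values, sequences of the claudin genes are shown. Among the members, the claudins gave the largest decrease that is not a bound and the one increase called in both lines. They are the promoter windows of CLDN7, CLDN4, CLDN3 and CLDN1 in RefSeq, 250 bases before to 50 bases after the start of transcription on GRCh38.p14. Capitals mark CACCTG on either strand, the E-box that repressors of the SNAI and ZEB families are known to bind. The windows lie at chr17:7262429-7262728 (minus strand, the second of the 2 CLDN7 windows), chr7:73830746-73831045 (plus strand), chr7:73770221-73770520 (minus strand) and chr3:190322397-190322696 (minus strand).
CLDN7: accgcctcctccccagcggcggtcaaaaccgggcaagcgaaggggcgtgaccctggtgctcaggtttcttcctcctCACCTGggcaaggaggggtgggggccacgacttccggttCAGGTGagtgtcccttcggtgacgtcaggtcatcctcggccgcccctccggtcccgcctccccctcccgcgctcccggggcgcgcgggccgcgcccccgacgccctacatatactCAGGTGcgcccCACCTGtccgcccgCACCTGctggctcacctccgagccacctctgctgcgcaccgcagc
CLDN4: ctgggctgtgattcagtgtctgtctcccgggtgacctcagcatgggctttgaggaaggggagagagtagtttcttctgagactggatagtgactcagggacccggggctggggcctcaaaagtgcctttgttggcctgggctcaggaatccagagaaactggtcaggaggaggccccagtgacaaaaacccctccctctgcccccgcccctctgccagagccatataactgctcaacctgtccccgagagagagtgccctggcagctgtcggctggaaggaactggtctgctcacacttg
CLDN3: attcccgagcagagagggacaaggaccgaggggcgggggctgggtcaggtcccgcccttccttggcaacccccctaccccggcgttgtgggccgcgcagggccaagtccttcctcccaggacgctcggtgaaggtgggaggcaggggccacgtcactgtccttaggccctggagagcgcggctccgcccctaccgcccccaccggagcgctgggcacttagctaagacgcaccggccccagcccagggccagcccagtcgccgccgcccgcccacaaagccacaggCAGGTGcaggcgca
CLDN1: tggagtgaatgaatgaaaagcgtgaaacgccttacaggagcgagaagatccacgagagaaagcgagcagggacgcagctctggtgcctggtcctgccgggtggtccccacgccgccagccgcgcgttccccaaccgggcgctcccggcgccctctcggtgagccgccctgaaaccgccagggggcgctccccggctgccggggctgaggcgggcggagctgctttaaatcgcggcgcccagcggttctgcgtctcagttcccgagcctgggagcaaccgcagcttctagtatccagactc
The CLDN7 window held 5 matches, which begin 174, 135, 20 and 9 bases before and 5 bases after the first transcribed base. The CLDN3 window held 1 match, 36 bases after the first transcribed base, and the CLDN4 and CLDN1 windows and the other CLDN7 window held 0. RefSeq windows were found for 7 of the 9 genes, 13 windows in all. CACCTG was in 6 of the 13 windows, against 20.6% of all 35116 windows. The 6 windows belong to 5 of the 7 genes (CLDN3, CLDN7, OCLN, TJP1 and TJP3), and no share per gene was computed over all genes. Both OCLN windows are among the 6, and they overlap. CLDN4, which was lower in both lines, had no match, and TJP3, which was higher in OR2, had 1. GGGCGG, the GC box, was in 10 of the 13 windows (45.0% of all windows), and CAGGTA, a further ZEB site, and TATAAA, the TATA box, were in 0 (9.83% and 11.5% of all windows). All 4 motifs were searched on both strands, and none contains another. A match describes the letters in a window and is not a bound site.

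Of the 9 genes, 4 were lower in OR1 than in H1975 (CLDN4, CLDN7, F11R and MARVELD3) and 1 was higher (CLDN1), where 9.58% of 21869 genes with a ratio were lower and 9.17% higher. In OR2, 4 were lower (CLDN4, CLDN7, MARVELD3 and OCLN) and 2 higher (CLDN1 and TJP3), where 8.70% of 21689 genes were lower and 7.72% higher. In both lines 3 were lower, CLDN4, CLDN7 and MARVELD3, and 1, CLDN1, was higher, against 6.70% and 5.40% of 21140 genes. The median log2 ratio of the 9 genes was -0.64 for OR1 and -0.91 for OR2, with 2 bounds in each, and that of all genes was 0.04 and -0.06. Both comparisons share the H1975 array. The members thus changed unequally, from a 21.8-fold decrease of CLDN7 in OR1 to an increase of at least 3.71-fold of CLDN1 in OR2. MARVELD3, with bounds only, fell at least 13.9-fold in OR1 and at least 14.7-fold in OR2, where CLDN7 fell 10.8-fold. TJP1 and CLDN3 passed neither ratio.

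**Figure D1:**
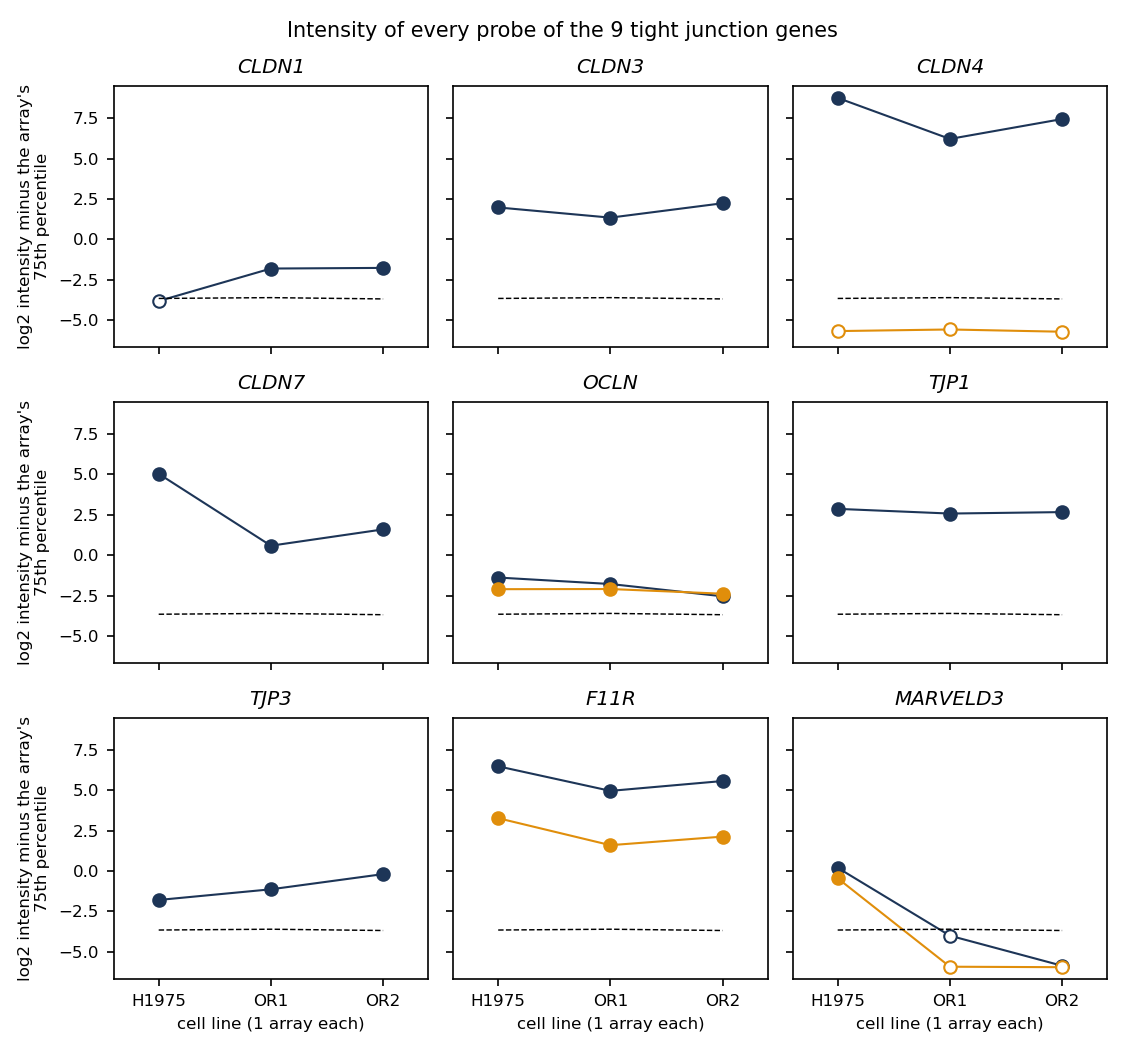
Scaled log2 intensity (y axis, log2 intensity minus the array's 75th percentile) of every probe of the 9 genes in H1975, OR1 and OR2 (x axis, 1 array each), with filled points well above background, open points not, blue for the brighter and orange for the dimmer probe, and the dashed line at the lowest intensity well above background. CLDN7 and MARVELD3 drop furthest, CLDN1 rises from below the dashed line, and the orange CLDN4 probe is below it on all 3 arrays.

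Among the claudins, CLDN7, which sits along the lateral membrane and binds EPCAM, showed the largest decrease. Its probe (NM_001307) lies on chromosome 17 of hg19 from 7163822 to 7163986 on the minus strand, and since these 165 bases exceed the 60 bases of the probe, the probe crosses an exon junction. Its sequence is shown because the largest decrease among the members that is not a bound rests on this single probe, with no capitals used.
CLDN7 probe: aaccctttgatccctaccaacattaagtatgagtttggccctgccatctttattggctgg
CLDN7 intensity was 5171 in H1975, against 208 for OR1 and 490 for OR2. Both resistant lines were far below the parent, and OR2 lay above OR1. Relative to H1975, OR1 held 0.0459 and OR2 0.0922, decreases of 21.8-fold and 10.8-fold (technical SD 0.21 and 0.20 on the log2 scale). Of genes well above background on both arrays compared, 0.169% lay lower than CLDN7 in OR1 and 0.321% did in OR2. Genes whose ratio is a bound were left out of these shares. Some of them fell further than CLDN7, such as OVOL2 (at most 0.00802 and at most 0.00757). EPCAM, the binding partner and one of the epithelial markers, went the same way, at 0.0370 in OR1 against 0.0725 in OR2, and its part in the result was not tested.

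CLDN4, a barrier-forming claudin and a receptor for Clostridium perfringens enterotoxin, was measured by a probe (NM_001305) on chromosome 7 of hg19 from 73246907 to 73246966. CLDN4 intensity was 68072 in H1975, against 10258 for OR1 and 28298 for OR2. It was lowest in OR1, yet far above background in every line. The ratio was 0.172 for OR1 and 0.405 for OR2, a decrease of 5.82-fold and 2.47-fold (technical SD 0.20 in both). The other CLDN4 probe (ENST00000431918, from 73244259 to 73244318) stayed below that detection limit in all 3 lines, at 2.90 to 3.09, and gave no ratio.

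CLDN3, also an enterotoxin receptor, lies beside CLDN4, with the probes 63.6 kb apart, and behaved differently. Its probe (NM_001306, chromosome 7 from 73183327 to 73183386, minus strand) read 623 in H1975, against 352 for OR1 and 762 for OR2. OR1 lay below the parent and OR2 slightly above it. The ratios of 0.644 for OR1 and 1.19 for OR2 (technical SD 0.20 in both) passed neither 0.5 nor 2. The lung lineage factor NKX2-1 had the same order of lines, with 832, 184 and 1167, as did NAPSA with 37.2, 25.1 and 59.8. SFTPC, of the same list of 4 lung alveolar markers, did not, with 24.0, 79.6 and 120 and ratios of 3.78 and 4.87, and SFTPB was below the detection limit. The part of these markers in the CLDN3 values was not tested. When the arrays were scaled on 7 spike-in probes, the CLDN3 ratio in OR1 was 0.424, which counts as lower.

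CLDN1, a claudin needed for the skin barrier, was the one member called higher in both lines. Its probe (NM_021101, chromosome 3 from 190024001 to 190024060, minus strand) read 11.2 in H1975, against which was not well above background, 39.5 for OR1 and 47.8 for OR2. Both resistant lines were above background, but at low intensities. The ratio was at least 3.59 for OR1 and at least 3.71 for OR2. With normexp, another background correction, the bounds were 1.56 and 1.47, and CLDN1 was then not called.

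**Figure D2:**
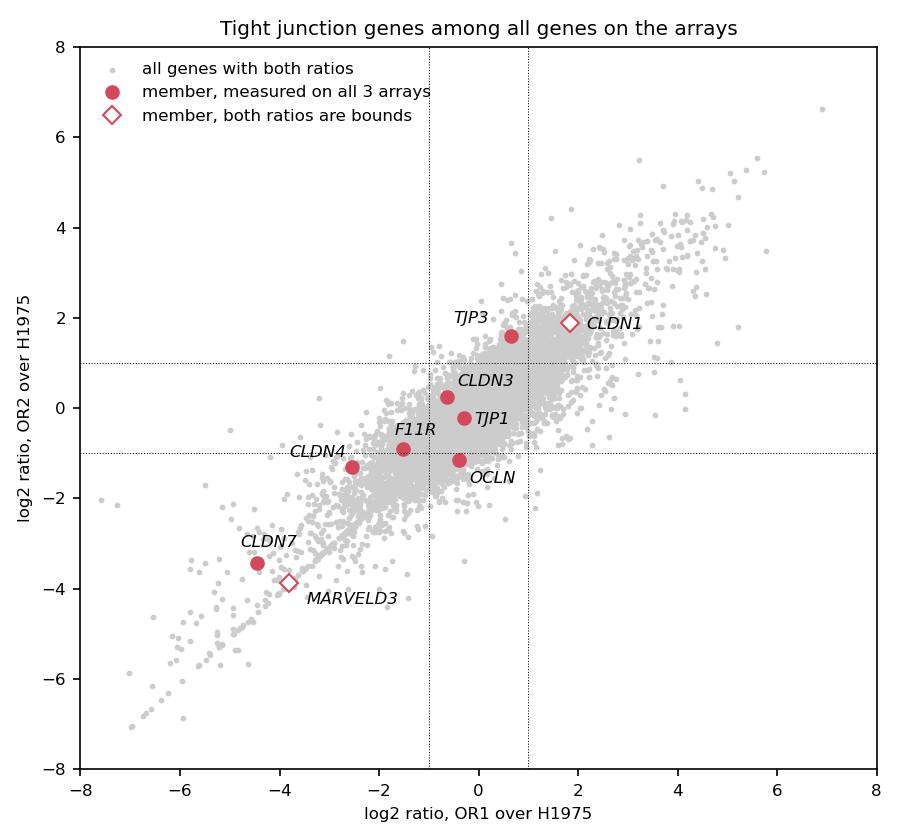
Log2 ratio of OR1 to H1975 (x axis) against that of OR2 to H1975 (y axis) for all genes with both ratios (grey) and the 9 members (red), with open diamonds where both ratios are bounds and dotted lines at ratios of 0.5 and 2. The H1975 array enters both axes; CLDN7 and MARVELD3 lie at the lower left, CLDN1 at the upper right, and CLDN3 is the only member left of 0 in OR1 and above 0 in OR2.

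Of the MARVEL-domain genes, MARVELD3 was well above background in H1975 alone. It was measured by probes to 2 transcripts on chromosome 16 of hg19. The probe to NM_052858, from 71668676 to 71668735, read 181 in H1975, against 8.61 for OR1 and 2.79 for OR2. The probe to NM_001017967, from 71674948 to 71675007, had 115, 2.29 and 2.62. Neither was well above background in a resistant line, so the ratios are bounds. For NM_052858 they were at most 0.0719 for OR1 and at most 0.0679 for OR2, decreases of at least 13.9-fold and at least 14.7-fold. With normexp these bounds were 0.303 and 0.275, still past 0.5. For NM_001017967 the decreases were at least 8.85-fold and at least 9.37-fold. An order of OR1 and OR2 cannot be read below background.

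OCLN had 2 probes that did not give the same result. The probe on chromosome 5 from 68849515 to 68849574 read 60.4 in H1975, against 40.2 for OR1 and 27.8 for OR2. Its ratio was 0.759 for OR1 and 0.448 for OR2 (technical SD 0.24 and 0.27), so OCLN was called lower in OR2 only. The other probe, from 68847386 to 68849429, crosses an exon junction and had intensities of 36.8, 32.4 and 31.1. Its log2 ratios of 0.00 for OR1 and -0.28 for OR2 (technical SD 0.26 and 0.25) passed neither limit. Its sequence is shown because the file lists it for the pseudogene transcript OCLNP1 (NR_026578) beside the OCLN transcripts, so that RNA of either may reach it, again with no capitals.
OCLN junction probe: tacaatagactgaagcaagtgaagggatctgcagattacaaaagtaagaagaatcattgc
The OCLN ratio of the brighter probe in OR2 was 0.742 with normexp, which ends the call, and in OR1 it was 0.499 with spike-in scaling, which makes one.

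F11R passed 0.5 in OR1 with both of its probes, which match NM_016946 on the minus strand of chromosome 1. The brighter, from 160966033 to 160966092, read 14058 in H1975, against 4308 for OR1 and 7684 for OR2. The ratio was 0.349 for OR1 and 0.532 for OR2, the first past 0.5 and the second just short of it (technical SD 0.20 in both). The other, from 160967950 to 160968009, had 1519, 418 and 707. Its ratios were 0.314 for OR1 and 0.453 for OR2 (technical SD 0.20 in both). The probes gave the same order, with H1975 highest and OR1 lowest, and differed in whether OR2 passed 0.5.

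Neither scaffold gene was called lower. TJP1, the ZO protein found at nearly all tight junctions and at other contacts too, read 1154 in H1975, against 824 for OR1 and 1029 for OR2 (NM_003257, chromosome 15 from 29992527 to 29992586, minus strand). Its ratios of 0.814 for OR1 and 0.867 for OR2 (technical SD 0.20 in both) were not called, and over the alternatives they lay between 0.536 and 0.916. TJP3, a ZO protein largely restricted to epithelia, read 45.5 in H1975, against 62.9 for OR1 and 142 for OR2 (NM_001267560, chromosome 19 from 3746516 to 3746575). All 3 values were low, and OR2 was the highest. The ratio was 1.58 for OR1 and 3.03 for OR2 (technical SD 0.23 and 0.22), called higher in OR2, where normexp gave 1.86 and ended the call.

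**Figure D3:**
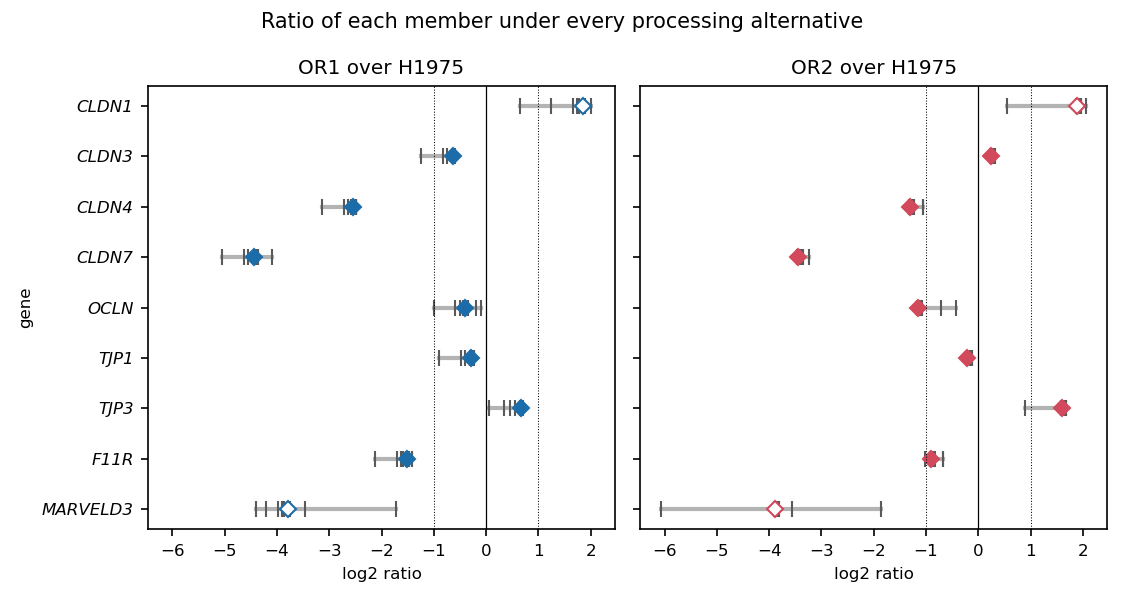
Log2 ratio to H1975 (x axis) of each of the 9 genes (y axis) in OR1 (left) and OR2 (right), as a diamond for the value reported (open for a bound), with ticks for the processing alternatives, a grey bar over their range and dotted lines at ratios of 0.5 and 2. CLDN4, CLDN7 and MARVELD3 stay below 0.5 in both lines wherever they have a ratio. CLDN1 crosses 2 in both lines and TJP3 crosses 2 in OR2. OCLN crosses 0.5 in both lines, CLDN3 crosses 0.5 in OR1 and F11R crosses 0.5 in OR2.

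OR1 and OR2 were next compared directly, which leaves out the H1975 array. Of the 8 members with a ratio of OR2 to OR1, 2 were at least 2-fold higher in OR2, CLDN4 at 2.35 and CLDN7 at 2.01 (technical SD 0.20 and 0.21), against 2.48% of 21451 genes. None was lower by that limit, against 2.89%. The ratio was above 1 for 7 of the 8 members, against 43.5% of all genes, and the median log2 ratio was 0.75 against -0.07. TJP3 at 1.92, CLDN3 at 1.85 and F11R at 1.52 lay above 1 by more than their technical SD of 0.20 to 0.21. TJP1 at 1.07 and CLDN1 at 1.03 did not, and OCLN, at 0.591 (technical SD 0.28), was the one member lower in OR2 than in OR1, with 0.821 (technical SD 0.27) for its other probe. CLDN7 was at 1.80 with normexp and then passed no limit. The order of the lines was therefore H1975, OR2 and OR1 from high to low for CLDN4, CLDN7 and F11R, and OR2, H1975 and OR1 for CLDN3. For TJP1, OR2 and OR1 were 0.09 apart on the log2 scale, within the technical SD. The brighter OCLN probe ran from H1975 through OR1 to OR2, while the other probe did not separate H1975 from OR1, and CLDN1 did not separate OR1 from OR2. With spike-in scaling, under which the all-gene median of OR2 over OR1 was 0.60 in place of -0.07 (log2), 5 members passed 2.

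The other genes of the tight junction were taken as 6 lists, 58 genes on the array, of which 42 had a ratio in both lines. Of the 42, 8 (19.0%) were lower and 6 higher in both lines, against 6.70% and 5.40% of all genes, and their median log2 ratio was -0.19 for OR1 and -0.08 for OR2, beside 0.04 and -0.06 for all genes. Of 19 other claudins 10 were not well above background on any array, among them CLDN18, the claudin of lung alveoli and stomach, and CLDN5, the endothelial claudin. Of the 9 with a ratio, CLDN9, CLDN15 and CLDN22 were lower in both lines. CLDN9 went from 123 (H1975) to 23.5 (OR1) and 50.1 (OR2), a ratio of 0.219 and 0.398. CLDN15, a pore-forming claudin, had ratios of 0.329 and 0.377, and CLDN22 at most 0.269 and 0.412. Cross-hybridization of the CLDN22 probe with related claudins was not tested. CLDN11, the claudin of myelin and Sertoli cells, rose from 48.0 (H1975) to 547 (OR1) and 567 (OR2), a ratio of 13.0 and 11.5 (technical SD 0.23 in both). CLDN2, which forms cation pores, had ratios of 2.10 and 2.06 (technical SD 0.31 and 0.30), just past 2.

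At the contacts of 3 cells, MARVELD2 (tricellulin) was lower, with 1622 in H1975, against 675 for OR1 and 646 for OR2, ratios of 0.474 and 0.387. The other 3 genes of that list, LSR, ILDR1 and ILDR2, were not called in either line. In the JAM and CAR family, CXADR, the receptor of coxsackieviruses and adenoviruses, was the only gene with a ratio, since JAM2, JAM3, ESAM and IGSF5 had none in both lines. CXADR intensity was 47.0 in H1975, against 279 for OR1 and 477 for OR2, a ratio of 6.79 and 9.88 (technical SD 0.22 in both). Its direction was thus opposite to that of F11R. Of 13 other scaffold genes with a ratio, CGN (cingulin), which links the ZO proteins to myosin, was lower, at 0.222 for OR1 and 0.373 for OR2. AMOT, which binds the polarity scaffolds and YAP, was higher, at least 6.78 and at least 3.23.

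Of 8 polarity genes with a ratio, CRB3, the apical Crumbs protein, was lower, with 938 in H1975, against 89.8 for OR1 and 205 for OR2, ratios of 0.109 and 0.213. PARD6A and PARD6B, adaptors of atypical protein kinase C, were higher, PARD6A at least 7.41 and at least 4.70, and PARD6B 2.25 and 3.44. Of 7 regulators, the membrane proteases ST14 (matriptase) and PRSS8 (prostasin) were lower, ST14 at 0.111 and 0.133 and PRSS8 at 0.0352 and 0.0241. The other 5 regulators were not called in either line.

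**Figure D4:**
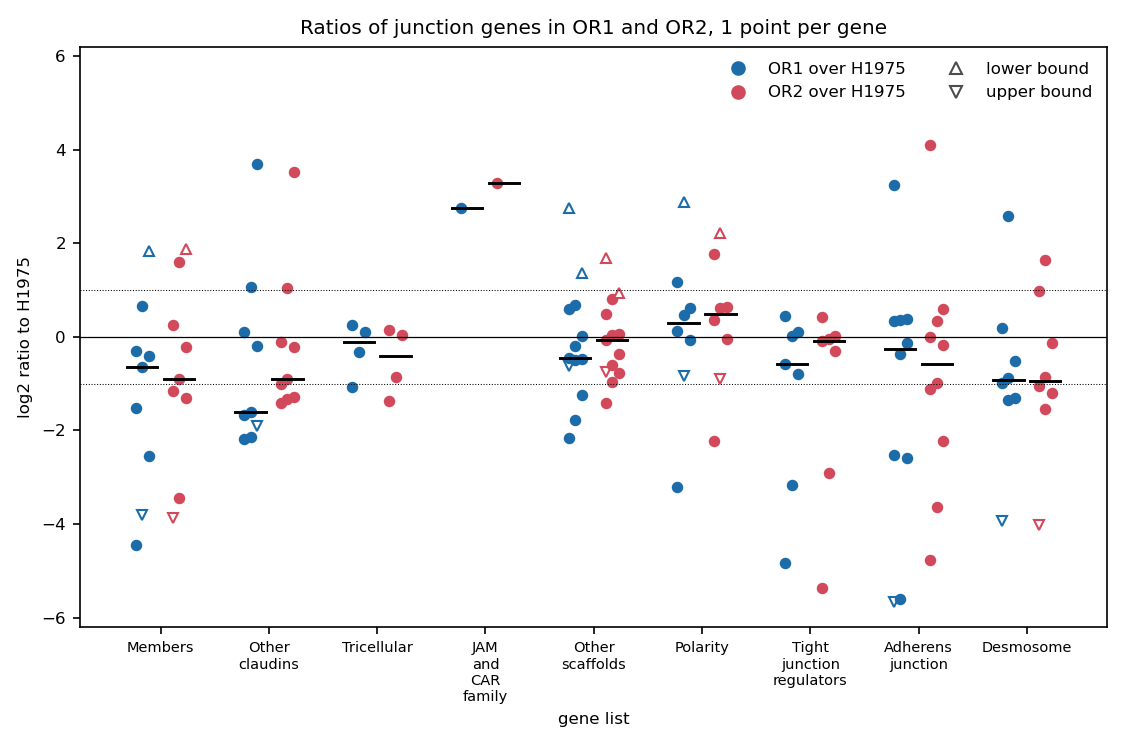
Log2 ratio to H1975 (y axis) in OR1 (blue) and OR2 (red) of every gene with a ratio in the members and in 8 junction lists (x axis), 1 point per gene, with open triangles for bounds, black bars for medians and dotted lines at ratios of 0.5 and 2. CLDN11 is at the top of the other claudins and PRSS8 at the bottom of the regulators.

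The lists of the other junctions were set beside the members without a test. Of 10 adherens junction genes with a ratio 4 were lower and 1 higher in both lines, and of 8 desmosome genes 3 were lower and 1 higher, beside 3 and 1 of the 9 members and 6.70% and 5.40% of all genes. The largest changes were those of NECTIN4 (at most 0.0196 for OR1 and 0.0370 for OR2), DSC2, a desmosomal cadherin (at most 0.0652 and at most 0.0616), CDH1, the E-cadherin of adherens junctions (0.0205 and 0.0800), and NECTIN3 (9.45 and 17.2). CDH1 was 3.90 times higher in OR2 than in OR1, the direction seen for CLDN4 and CLDN7. Among known repressors of claudins and CDH1 with a ratio in both lines, ZEB1 was higher (4.74 and 5.14), SNAI1 lower (0.367 and 0.284), and SNAI2, at 0.617 and 0.546, was not called. Of 8 epithelial regulators with a ratio in both lines, 6 were lower. OVOL1 (at most 0.00976 and at most 0.00921), OVOL2 (at most 0.00802 and at most 0.00757), GRHL2 (at most 0.0278 and at most 0.0263) and ESRP1 (at most 0.0400 and at most 0.0377) were not well above background in either resistant line. GRHL1 (0.143 and 0.268) and ESRP2 (0.309 and 0.260) were the other two, while ELF3 (0.543 and 0.839) and KLF5 (0.681 and 1.08) were not called.

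The members lie on 8 chromosomes, and the genes with probes within 250 kb of each were examined. Around CLDN4, 4 of 15 neighbours with a ratio were lower in both lines and 0 higher, against 6.70% of all genes lower. They were VPS37D (0.251 for OR1 and 0.417 for OR2), WBSCR22 (0.315 and 0.367), STX1A (0.281 and 0.328) and ABHD11 (0.358 and 0.439), all on the CLDN3 side, where CLDN3 itself was not called. Around CLDN3, which was not called, 5 of 14 were lower and 0 higher. These were CLDN4 and the same 4 genes as around CLDN4, since the 2 windows overlap, so this is not a separate count. Around CLDN7, 1 of 32 was lower, YBX2 (0.183 and 0.375), and 1 higher, DLG4 (2.42 and 2.78), and the neighbours' median log2 ratio was 0.08 and -0.08. Near OCLN 1 of 8 was lower, MARVELD2, another tight junction gene, with its probe 110 kb away. Near F11R 2 of 22 were lower, NECTIN4 and TSTD1 (0.248 and 0.415), near MARVELD3 2 of 16, near TJP3 1 of 12, near TJP1 0 of 3 and near CLDN1 0 of 1. Higher neighbours numbered 1 near F11R, 1 near MARVELD3 and 0 near OCLN, TJP1, TJP3 and CLDN1. DNA was not measured on these arrays.

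**Figure D5:**
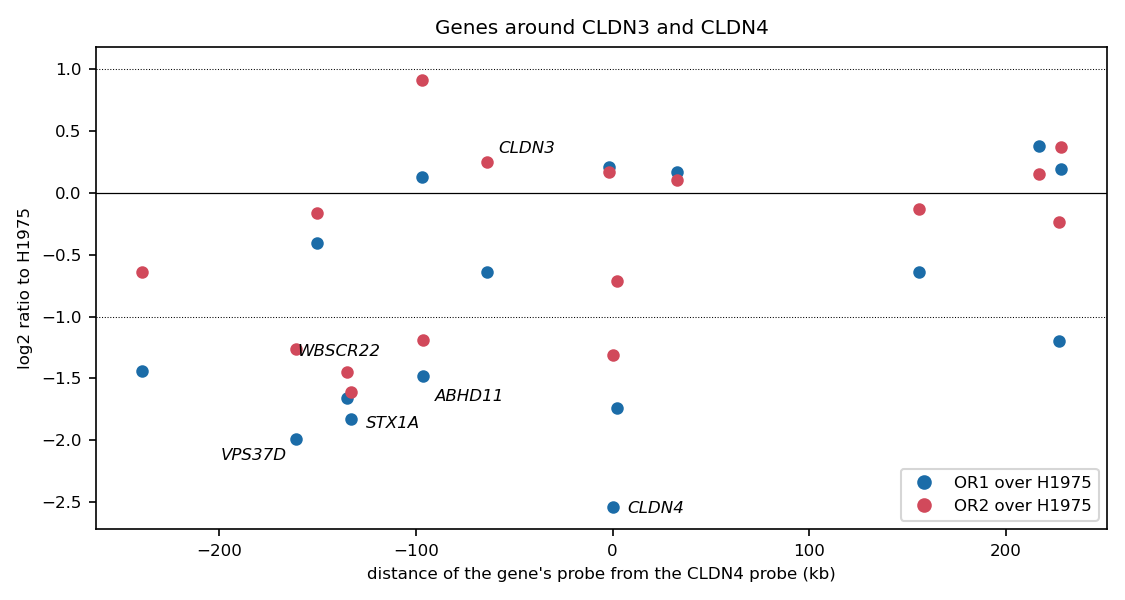
Log2 ratio to H1975 (y axis) in OR1 (blue) and OR2 (red) of the genes with probes within 250 kb of the CLDN4 probe, by distance from it in kb (x axis), with dotted lines at ratios of 0.5 and 2. VPS37D, WBSCR22, STX1A, ABHD11 and CLDN4 lie below a ratio of 0.5 in both lines, and CLDN3 and the genes beyond 200 kb on the right do not.

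The 3 genes whose pair of ratios lay nearest to the median pair of the 7 members measured on all 3 arrays (0.644 for OR1 and 0.532 for OR2) were SLC2A1 (0.644 and 0.530), PHF5A (0.641 and 0.529) and CCNE2 (0.642 and 0.535). Likeness was the Euclidean distance over the 2 log2 ratios among 18584 genes. The median was taken for each line separately, so 0.644 was the ratio of CLDN3 and 0.532 that of F11R. No single member had this pair of ratios.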

How the data were processed

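Labelled complementary RNA of the 3 lines was put by the authors on Agilent SuperPrint G3 arrays, 1 per line. The deposited scanner files hold intensities that Agilent Feature Extraction (10.7.1.1 per the file headers, 9.5.1.1 per the submitters' processing notes) corrected for background and spatial trends within each array, with no scaling between arrays. The deposited series table holds the authors' normalized intensities on a linear scale, with medians of 9.51 in all 3 columns. Their method is not given in the sources used here, and apart from a constant they differed little from quantile-normalized scanner intensities. Columns of all samples were used.

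Control probes and 45 to 61 outlier spots per array were removed. Repeated spots entered as the mean of their log2 intensities, from which the 75th percentile of the array was then subtracted. No spot was saturated (0 per array). The probe with the highest mean stood for a gene, and every probe of a member is given. Ratios of 2 and 0.5 follow the methods. An array is 1 sample per line, so the number of arrays limits the precision. Spots of probes printed repeatedly had a median SD of 0.05 on the log2 scale.

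The members and lists were chosen with earlier results of these data known. The genes named are the members, genes of the other tight junction lists past 2 or 0.5 in both lines (at most 6 per list), the 4 adherens or desmosome genes that changed most, regulators with a ratio in both lines and the 3 nearest patterns. CLDN18, CLDN5, LSR, ILDR1, ILDR2, JAM2, JAM3, ESAM, IGSF5, the markers given beside CLDN3 and CLDN7, and genes near a member were named after their values were seen. The same holds for COL1A1, COL1A2 and LUM. Probe positions are on hg19, promoters on GRCh38.p14, and 12 of the 13 probes had a RefSeq accession that carries the same symbol. The alternatives were 5 other scalings, normexp with an offset of 50, the authors' values, 2 other background filters, outlier spots kept, 2 other probe rules, and ratios of 4 and 1.5. The counting was tested on simulated data that held no bounds and only changes well past the limits. Calls on bounds and changes near a limit were not tested in this way. Python 3.11.15, numpy 2.4.6, pandas 2.3.3, R 4.3.3 and limma 3.58.1 were used. LIN7C, CD68 and LYZ were not analysed here, and single members of 2 lists are not reported here.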

Additional observations from a re-analysis of the deposited data

Results flagged for a closer look

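The ratios to H1975 lay on opposite sides of 1 in the resistant lines for 1 of the 9 members, CLDN3, and, among the repressors and epithelial activators, for KLF5. Genes of the other lists were not searched for this. The CLDN3 ratio was 0.644 for OR1 against 1.19 for OR2, each further from 1 than its technical SD, and it was between 0.424 and 0.665 in OR1 and between 1.17 and 1.25 in OR2 over the 12 settings run. The KLF5 ratio was 0.681 for OR1 against 1.08 for OR2, the latter within its technical SD, and alternatives were not run for it. For neither gene was the difference tested, since each line has 1 array.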

How the results depend on the processing

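Of 281 values of single members under alternatives, 238 moved by less than their technical SD (for bounds, the median SD of all genes), 43 moved further and 0 called ratios changed direction. Of the 43, 17 came with spike-in scaling and 11 with normexp. Of these shifts the cause was not tested, except that stricter or looser ratios and filters change counts by construction. With spike-in scaling the all-gene median of the log2 ratio in OR1 went from 0.04 to -0.57, and spike-in scaling brought the share of higher genes among those called in both lines from 44.6% to 27.2%.

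For the members, counting every probe gave 5 lower in both lines, against 3 genes. With a ratio of 4, 2 were lower in OR2, and with normexp, with all 3 arrays well above background, with a ratio of 4 and with a ratio of 1.5, the numbers higher were 0, 0, 0 and 2 in OR1 and in both lines, against 1. In OR2 they were 0, 1 and 0 under the first 3 of these, against 2. The members higher in OR2 than in OR1 numbered 4 without scaling, 5 with spike-in scaling, 1 with normexp, 0 with a ratio of 4 and 5 with a ratio of 1.5, against 2. The median log2 ratio of the members was -1.24 in OR1 with spike-in scaling, against -0.64. In OR2 it was -0.68 with quantile normalization, -0.68 with the authors' values and -0.43 with normexp, against -0.91, and for OR2 over OR1 it was 0.98 with arrays unscaled and 1.42 on the spike-in scale, against 0.75.

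Other tight junction genes lower in both lines numbered 5 with normexp, 3 with a ratio of 4 and 14 with a ratio of 1.5, against 8, and those higher 2 with normexp and 3 with a ratio of 4, against 6. Over all genes, 705 were lower with normexp, 874 with all 3 arrays well above background, 2437 without a background filter, 422 with a ratio of 4 and 2957 with a ratio of 1.5, against 1417. Higher were 461 with normexp, 591 with spike-in scaling, 2057 without a filter, 265 with a ratio of 4 and 2573 with a ratio of 1.5, against 1141. Requiring all 3 arrays leaves no ratio for CLDN1 and MARVELD3. Intensity over background limits CLDN1, MARVELD3, OCLN and TJP3. Each line had 1 array, so no test, paired or unpaired, was run.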
